A study of Mus musculus with 30 samples.

Results

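The 41 genes described here encode the enzymes that build cholesterol and fatty acids, the sterol-regulated transcription factors and their partners, and the liver X receptors (LXR) with 3 of their targets. The rule lists them by name. Each of the 41 matched a single row of the count table, which holds 55487 Ensembl genes, and all 41 passed the filter on low counts that left 15907 genes in all. They fall into 6 groups by role: 7 genes of the mevalonate and isoprenoid steps, 11 of the steps from squalene to cholesterol, 5 of the SREBP system with a sterol carrier, 5 of acetyl-CoA supply and fatty acid synthesis, 8 of desaturation, elongation, activation and lipin, and 5 of the LXR group. The list does not cover every step of these pathways.

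The cells were C2C12, an established wild-type mouse myoblast line that fuses into myotubes when serum is lowered. All groups were first held for 4 days in low glucose medium with 2% horse serum and were then kept for 4 more days in 1 of 5 media. These were 2% horse serum (2% HS), serum deprivation (SD), or SD with 100 nM metformin (MET), 500 nM leucine (LEU) or both (MET+LEU), with 6 RNA-seq libraries in each group and 30 in all. The comparison of SD with 2% HS asks what serum withdrawal, an atrophy stimulus, does to the cells, and the comparisons of MET, LEU and MET+LEU with SD ask what each treatment adds. The labels do not say whether the 6 libraries came from separate cultures, so the p-values measure the spread between these libraries, which may be technical.

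Libraries held between 12784960 and 19604103 counts, of which the 41 genes took between 0.406% and 0.547%. The 8 myotube markers summed to medians between 8602 CPM (counts scaled to a common library total by TMM) in SD and 9648 CPM in MET+LEU. The defining markers of hepatocytes, macrophages and adipocytes were at or near 0. Alb, Adgre1 and Lep had no count in any library, and of these lists Pparg, at a median of 7.34 CPM or less in each group, and Cd68, at 2.98 CPM or less, were the genes that passed the filter on low counts. In SD vs. 2% HS, 1 of 8 myotube markers was higher and 1 lower (Ckm, log2 fold change -0.98), and with MET+LEU against SD 3 of the 8 rose. Among all genes tested, 13.9% were higher and 13.9% lower in SD vs. 2% HS at an adjusted p under 0.05. In MET+LEU vs. SD these shares were 10.6% and 7.80%. The 6 markers of cycling or undifferentiated myoblasts summed to 356, 363 and 383 CPM in 2% HS, 316, 327 and 357 in SD and 274, 286 and 299.5 in MET+LEU (lowest, median and highest library), and 4 of the 6 fell in MET+LEU vs. SD. The part of these shifts in the results below was not tested, and in such bulk RNA fewer cells of a type and less RNA per cell cannot be told apart. A pair of libraries stood apart in their reads. MET+LEU replicate 6 had 5.85% of its counts on nuclear and 7.64% on mitochondrial ribosomal RNA genes, against at most 1.96% and 0.76% elsewhere. GC-poor genes were also high against GC-rich genes by 0.408 on the log2 scale in this library and low in SD replicate 1 (-0.348), and the other 28 libraries lay between -0.158 and 0.171.

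As background, cholesterol is made from acetyl-CoA through HMG-CoA, mevalonate, isoprenoid diphosphates and squalene. The SREBP transcription factors are made as membrane proteins of the endoplasmic reticulum. SCAP escorts them to the Golgi for cleavage when sterols are low, and INSIG proteins hold the complex back when sterols are high. Srebf2 is known mainly for the sterol genes and Srebf1 mainly for the fatty acid genes, while the LXR proteins are activated by oxysterols and switch on cholesterol export. Muscle cells need both lipid classes for the membranes laid down when myoblasts fuse.

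The classical SREBP-binding sterol regulatory element is searched here as TCACNCCAC on both strands of RefSeq promoters on GRCm38.p6, from 250 bases before to 50 bases after each annotated start. Windows were given for 33 of the 41 genes (41 windows), but none for Scd1, Scd2, Sqle, Stard4, Fads1, Fdps, Abcg1 and Fdft1. Of the genes searched, Hmgcs1 alone held an exact match to the element, which lies in 1.24% of all 32851 windows. CCAAT, the site of the NF-Y factor that works beside SREBP, was found on either strand in 61% of the members' windows and in 37.4% of all windows. The 250 bases before the start of Hmgcs1 (chr13:119690101-119690350, plus strand) are shown because they carry the element, with its letters and those of CCAAT or its reverse complement ATTGG in capitals. The same stretch of Cyp51 (chr5:4104698-4104947, minus strand) is set below it because Cyp51 rose with Hmgcs1 in SD, and was chosen after its values were seen.
Hmgcs1: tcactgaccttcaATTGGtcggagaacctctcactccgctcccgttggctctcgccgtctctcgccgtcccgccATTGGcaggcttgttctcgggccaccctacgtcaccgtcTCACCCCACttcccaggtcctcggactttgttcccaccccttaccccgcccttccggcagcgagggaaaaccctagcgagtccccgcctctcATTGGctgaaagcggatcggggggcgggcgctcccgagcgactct
Cyp51: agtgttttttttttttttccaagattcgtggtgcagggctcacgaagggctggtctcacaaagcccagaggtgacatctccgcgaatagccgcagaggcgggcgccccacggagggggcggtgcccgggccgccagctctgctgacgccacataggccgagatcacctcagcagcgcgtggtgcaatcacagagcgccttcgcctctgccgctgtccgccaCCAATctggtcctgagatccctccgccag
The element of Hmgcs1 begins 137 bases before the start and overlaps none of its 3 ATTGG sites, which begin 237, 176 and 45 bases before it. Cyp51 holds a single CCAAT, 29 bases before the start. A match of letters is a description of the window and not a measured binding site. Variants of the element were not searched, so a window without an exact match, such as that of Cyp51, may still hold a site.

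Levels differed far more between the 41 genes than between the groups. Per kilobase of exon (RPKM, the median of 6 SD libraries), the acyl-CoA desaturase gene Scd2 was at 301 and its neighbour Scd1 at 114. Acsl3 (62.1), Hmgcs1 (53.9), Srebf2 (50.7), Cyp51 (34.8) and Fasn (28.7) followed. At the other end were Tm7sf2 (2.19), Abca1 (2.07), Acacb (1.78) and Nr1h3, the gene of LXR alpha, at 0.849. Nr1h2, the gene of LXR beta, was at 14.2 RPKM, so LXR beta transcripts were the more abundant of the receptor pair in these cells. Srebf2 also stood above Srebf1, which was at 18.4 RPKM.

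With serum withdrawal, 17 of the 41 genes passed the threshold of an adjusted p under 0.05, 13 higher and 4 lower in SD. Among all 15907 genes tested, 27.8% passed, 13.9% higher and 13.9% lower. The members' log2 fold changes had a median of 0.05, against 0.0028 over all genes. Abcg1 (0.86) had the largest change and Pmvk (0.42) the next. With MET+LEU added to SD, 13 of the 41 passed, 4 higher and 9 lower, where 18.4% of all genes passed, 10.6% higher and 7.80% lower, and the median was -0.05 against -0.0050. As shares, 41.5% of the members passed with serum withdrawal and 31.7% with MET+LEU. The SD libraries enter both comparisons with opposite sign, so the values of the comparisons are given side by side and not as independent observations.

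**Figure D1:**
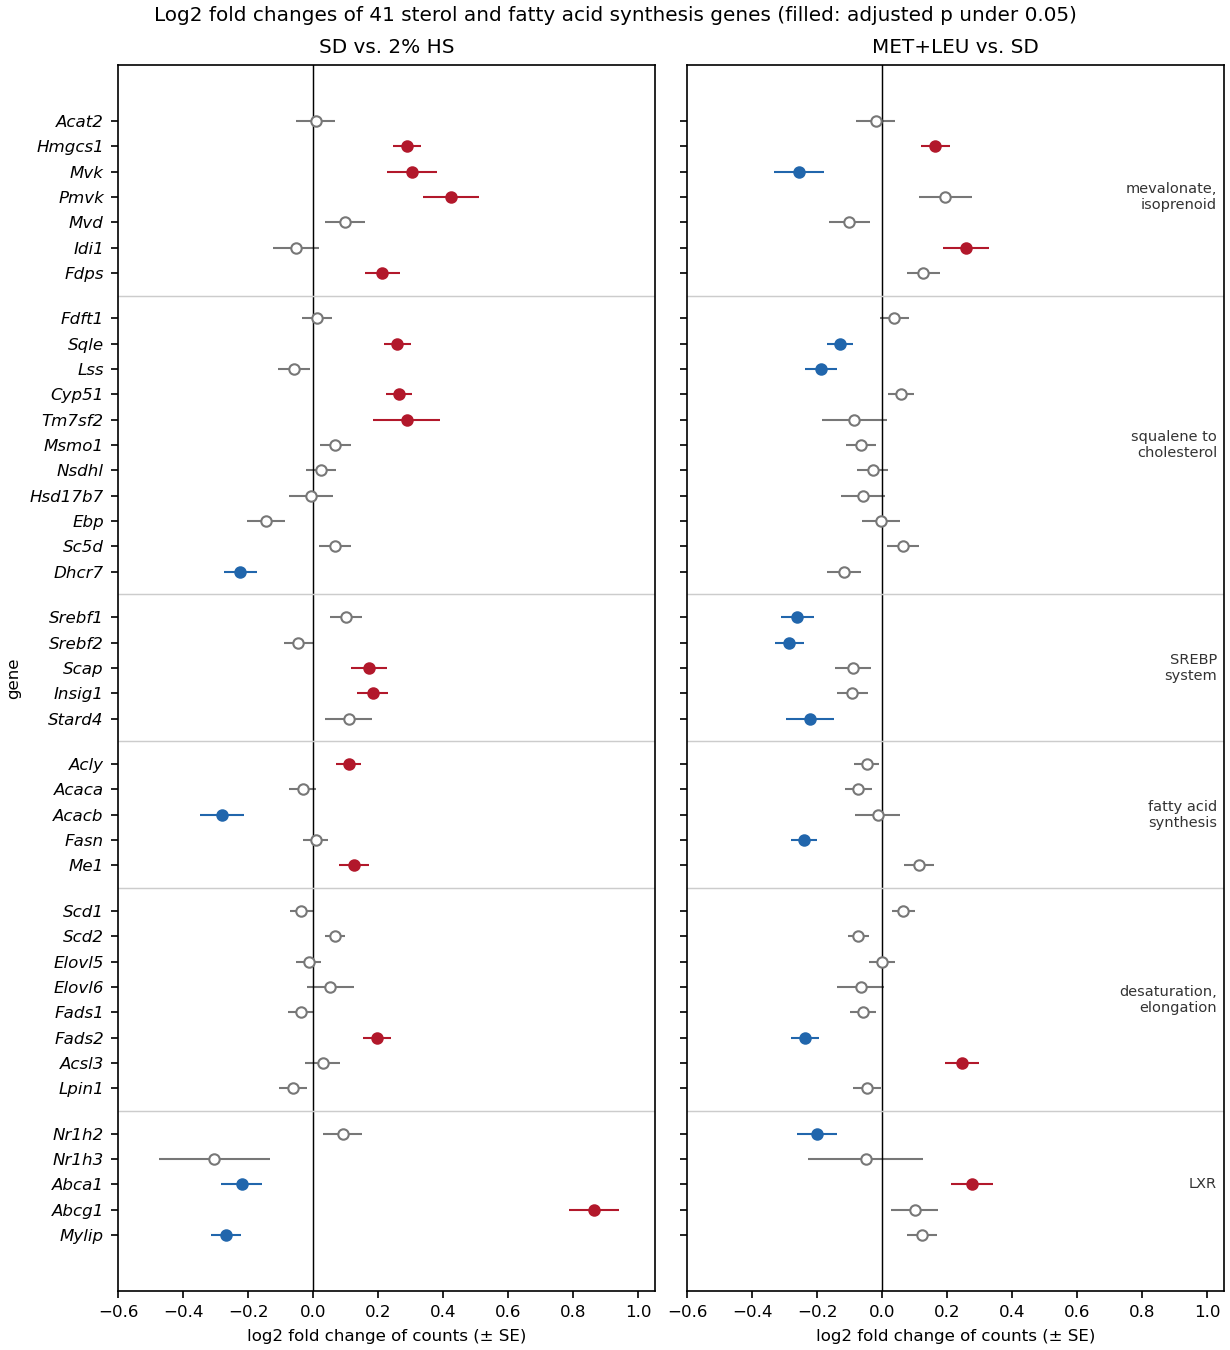
Log2 fold change ± SE of each of the 41 genes in SD vs. 2% HS (left) and MET+LEU vs. SD (right), grouped by role, with filled points for an adjusted p under 0.05 (red higher, blue lower). On the left 13 of the 17 filled points lie to the right of 0, 7 of them sterol synthesis genes, with Abcg1 apart at 0.86, while 9 of the 13 on the right side lie below 0 and include Srebf1 and Srebf2.

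Of the early enzymes of the pathway, Hmgcs1, Mvk, Pmvk and Fdps were higher after serum withdrawal. In the mevalonate and isoprenoid group 4 of 7 genes rose in SD vs. 2% HS and none fell, with a median log2 fold change of 0.21. Of all genes, 13.9% rose and 13.9% fell. A log2 fold change is followed by ± its standard error (SE). The 3 values given for a gene in a group are the lowest, median and highest of its 6 libraries in CPM. Hmgcs1 (ENSMUSG00000093930, chr13:119690379-119708260, plus strand), which makes HMG-CoA, was at 198, 201 and 217 CPM in 2% HS, 224, 247 and 279 in SD, 245, 249 and 262 in MET, 233, 239 and 265 in LEU, and 266, 272 and 312 in MET+LEU. All 6 SD libraries lay above all 6 of 2% HS, and the log2 fold change was 0.29 ± 0.04, adjusted p = 9.57e-07. In MET+LEU it was higher again, by 0.16 ± 0.04, adjusted p = 0.00634, with the lowest MET+LEU library above the SD median but the groups overlapping. After a correction for GC content this further rise was 0.09 (adjusted p = 0.0517).

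Both kinases of the mevalonate steps, Mvk and Pmvk, rose in SD, and they were not tested against each other. Mvk (ENSMUSG00000041939, chr5:114444269-114460591, plus strand), which phosphorylates mevalonate, was at 13.1, 15.9 and 16.6 CPM in 2% HS, 16.7, 19.1 and 20.8 in SD, 15.1, 16.9 and 17.8 in MET, 14.7, 16.6 and 19.1 in LEU, and 12.6, 16.5 and 17.3 in MET+LEU. Its SD libraries all lay above those of 2% HS (log2 fold change 0.30 ± 0.08, adjusted p = 0.00202), and with MET+LEU against SD it fell (log2 fold change -0.26 ± 0.08, adjusted p = 0.0144), with a range that overlapped that of 2% HS (MET+LEU vs. 2% HS 0.05 ± 0.08, adjusted p = 0.671). That fall was -0.21 (adjusted p = 0.0517) without MET+LEU replicate 6, which had the lowest value, and -0.16 (adjusted p = 0.12) after GC correction. Pmvk (ENSMUSG00000027952, chr3:89454541-89469013, plus strand), the kinase of the next step, was at 10.2, 11.02 and 13.3 CPM in 2% HS, 12.8, 14.7 and 18.4 in SD, 13.9, 15.4 and 18.8 in MET, 14.3, 15.9 and 17.1 in LEU, and 15.4, 17.3 and 21.2 in MET+LEU. It rose in SD by 0.42 ± 0.09, adjusted p = 0.000111, the largest change of the sterol enzymes. Its MET+LEU value stood at 0.19 ± 0.08 against SD (adjusted p = 0.0918), and at 0.26 (adjusted p = 0.0281) after GC correction. Against 2% HS the MET+LEU libraries did not overlap those of 2% HS, with a log2 fold change of 0.62 ± 0.08, adjusted p = 5.62e-08.

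Idi1 (ENSMUSG00000058258, chr13:8885501-8892451, plus strand), the isomerase of isopentenyl diphosphate, was at 19.1, 21.8 and 24.7 CPM in 2% HS, 17.9, 21.6 and 22.7 in SD, 18.6, 21.4 and 24.6 in MET, 20.6, 22.6 and 24.5 in LEU, and 23.2, 24.8 and 28.9 in MET+LEU. It did not pass in SD vs. 2% HS (-0.05 ± 0.07) and rose in MET+LEU vs. SD by 0.26 ± 0.07, adjusted p = 0.00652, where all 6 libraries lay above those of SD. It is the member with the lowest GC content (41.1%) and its value after GC correction was 0.17 (adjusted p = 0.0634). Fdps, which makes farnesyl diphosphate, rose in SD by 0.21 ± 0.05, adjusted p = 0.0015, and 26.7% of its exon bases are also annotated to Gm43738 on the same strand. With MET+LEU the Fdps value against SD was 0.13 ± 0.05 (adjusted p = 0.0819). Acat2 (cytosolic thiolase) and Mvd (mevalonate diphosphate decarboxylase) passed in neither comparison, with log2 fold changes of 0.01 and 0.10 in SD and -0.02 and -0.10 in MET+LEU vs. SD. Reads of Acat2 may be shared with its near-identical neighbour Acat3.

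From squalene to cholesterol, 3 of 11 genes rose and 1 fell in SD vs. 2% HS, where 13.9% of all genes rose and 13.9% fell. Sqle (ENSMUSG00000022351, chr15:59315077-59331192, plus strand), the squalene epoxidase and a slow step of the pathway, was at 74.4, 76.1 and 80.2 CPM in 2% HS, 86.4, 90.6 and 101 in SD, 85.3, 90.2 and 92.5 in MET, 80.4, 84.4 and 94.3 in LEU, and 81.2, 82.9 and 90.96 in MET+LEU. Each SD library was above every library of 2% HS (0.26 ± 0.04, adjusted p = 1.79e-06). MET+LEU lowered it by part of that rise (-0.13 ± 0.04, adjusted p = 0.0196), and it still lay above 2% HS by 0.13 ± 0.04, adjusted p = 0.0102, a difference of 0.10 (adjusted p = 0.0536) without MET+LEU replicate 6. Cyp51 (ENSMUSG00000001467, chr5:4081145-4104746, minus strand), the lanosterol demethylase, was at 124, 125 and 127 CPM in 2% HS, 135, 154 and 163 in SD, 141, 143 and 146 in MET, 136, 140.4 and 151 in LEU, and 145, 152 and 174 in MET+LEU. The 2% HS libraries were within a narrow band below every SD library (0.26 ± 0.04, adjusted p = 9.35e-07), and the difference of MET+LEU from SD was 0.06 ± 0.04 (adjusted p = 0.342). Tm7sf2 (ENSMUSG00000024799, chr19:6062821-6068373, minus strand), a sterol reductase, was at 6.57, 7.86 and 8.97 CPM in 2% HS, 8.23, 9.62 and 10.8 in SD, 7.03, 9.48 and 10.6 in MET, 7.24, 8.67 and 10.02 in LEU, and 8.21, 8.70 and 10.1 in MET+LEU. Its rise in SD (0.29 ± 0.10, adjusted p = 0.0301) came with overlapping groups, was 0.28 (adjusted p = 0.0542) without SD replicate 1, and rests on a gene that shares 12.1% of its exon bases with Vps51 on the same strand.

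**Figure D2:**
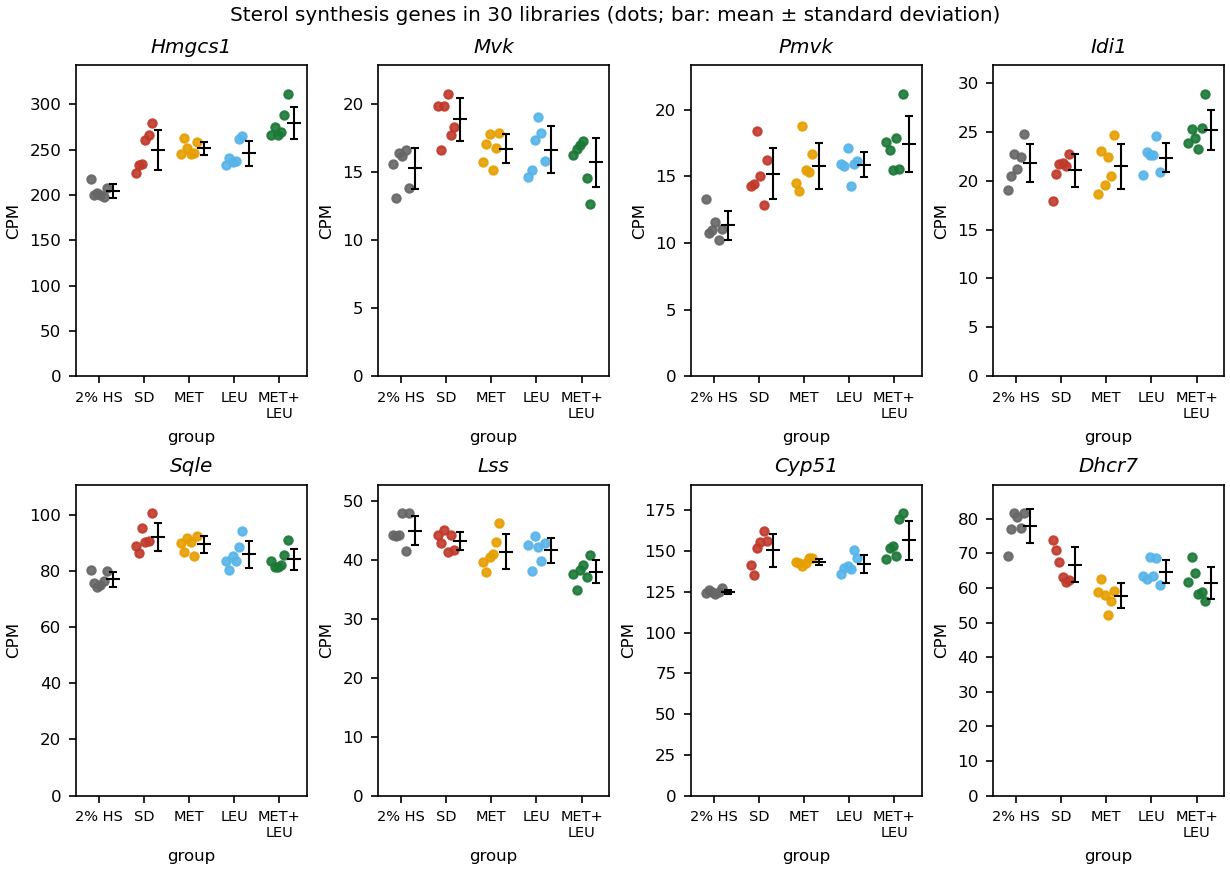
TMM-scaled CPM of 8 sterol synthesis genes in each of 30 libraries (dots) by group, on axes that start at 0, with the mean and standard deviation of 6 libraries as a bar. Hmgcs1, Mvk, Sqle and Cyp51 in SD lie above every 2% HS library, Lss in MET+LEU lies below every SD library, and Dhcr7 has a lower mean in each serum-free group than in 2% HS.

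Dhcr7 and Lss did not follow these enzymes. Dhcr7, the reductase that yields cholesterol from its precursor, fell in SD (log2 fold change -0.22 ± 0.05, adjusted p = 0.000577), and all 6 SD libraries lay below the median of 2% HS. In 2% HS it was at 69.1, 79.01 and 81.7 CPM and in MET+LEU at 56.2, 60.3 and 69.01, a difference of -0.34 ± 0.05, adjusted p = 4.06e-07. Lss (ENSMUSG00000033105, chr10:76531588-76557138, plus strand), which closes the ring to lanosterol, was at 41.5, 44.2 and 48.001 CPM in 2% HS, 41.4, 43.5 and 45.1 in SD, 37.9, 40.7 and 46.3 in MET, 38.2, 42.4 and 44.1 in LEU, and 34.96, 37.9 and 40.8 in MET+LEU. It did not pass in SD (-0.06 ± 0.05), and in MET+LEU all 6 libraries lay below all 6 of SD (-0.19 ± 0.05, adjusted p = 0.00511). The other 9 genes of this stretch did not pass in MET+LEU vs. SD, with log2 fold changes between -0.12 (Dhcr7) and 0.06 (Sc5d). In SD vs. 2% HS, Lss, Fdft1, Msmo1, Nsdhl, Hsd17b7, Ebp and Sc5d did not pass, with values between -0.15 ± 0.06 for Ebp, the sterol isomerase (adjusted p = 0.0556), and 0.07 ± 0.05 for Msmo1, the methyl sterol oxidase. Ebp lay near the threshold and was called lower under 5 of 9 alternatives, with -0.19 (adjusted p = 0.0142) without SD replicate 1 and -0.15 (adjusted p = 0.0363) without MET+LEU replicate 6. Thus Hmgcs1, Sqle and Cyp51 rose after serum withdrawal while Dhcr7 fell, and the pathway did not shift as a block.

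The SREBP genes themselves passed in MET+LEU vs. SD and did not pass in SD vs. 2% HS, where after GC correction Srebf2 passed and Srebf1 did not. Srebf2 (ENSMUSG00000022463, chr15:82147181-82205379, plus strand) was at 358, 387 and 404 CPM in 2% HS, 342, 364 and 423 in SD, 337, 359 and 383 in MET, 344, 361 and 371 in LEU, and 270.4, 306 and 328 in MET+LEU. In SD vs. 2% HS the log2 fold change was -0.05 ± 0.04 (adjusted p = 0.466), and after GC correction it was -0.08 (adjusted p = 0.0424). In MET+LEU every library was below every SD and every 2% HS library, with a fall of -0.29 ± 0.04, adjusted p = 1.04e-05 against SD and -0.33 ± 0.04, adjusted p = 3.11e-08 against 2% HS. Srebf1 (ENSMUSG00000020538, chr11:60199089-60222581, minus strand), whose locus carries a microRNA gene, Mir6922, in its exons, was at 92.4, 101 and 107 CPM in 2% HS, 99.6, 103 and 124 in SD, 97.1, 103 and 108 in MET, 94.97, 99.4 and 111 in LEU, and 78.9, 91.1 and 95.7 in MET+LEU. It did not pass in SD (0.10 ± 0.05, adjusted p = 0.133), nor after GC correction (0.06, adjusted p = 0.247). In MET+LEU it lay below all SD libraries (-0.26 ± 0.05, adjusted p = 0.000176). Both genes are GC-rich, at 59.4% for Srebf1 and 57.1% for Srebf2. After GC correction the MET+LEU vs. SD values were -0.15 (adjusted p = 0.00311) and -0.20 (adjusted p = 5.41e-06). Without MET+LEU replicate 6, the lowest library of each, they were -0.23 (adjusted p = 0.000309) and -0.26 (adjusted p = 6.12e-06).

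Of the partners of SREBP, Insig1 and Scap rose in SD. Insig1 (ENSMUSG00000045294, chr5:28071363-28078662, plus strand), which retains the SCAP and SREBP complex and is itself an SREBP target, was at 60.4, 65.1 and 74.2 CPM in 2% HS, 71.4, 75.2 and 77.3 in SD, 66.98, 73.8 and 77.2 in MET, 63.6, 71.5 and 76.2 in LEU, and 61.3, 71.3 and 75.04 in MET+LEU. It rose in SD by 0.18 ± 0.05, adjusted p = 0.00298, with a single 2% HS library inside the SD range. Against SD, MET+LEU stood at -0.09 ± 0.05 (adjusted p = 0.177). Scap (ENSMUSG00000032485, chr9:110333288-110384950, plus strand), the escort, was at 55.3, 58.03 and 65.2 CPM in 2% HS, 59.5, 66.3 and 72.96 in SD, 58.1, 63.2 and 68.04 in MET, 62.4, 65.5 and 74.3 in LEU, and 52.6, 64.4 and 67.1 in MET+LEU. All SD libraries exceeded the 2% HS median (0.17 ± 0.05, adjusted p = 0.0142), and the rise was 0.14 (adjusted p = 0.0564) without SD replicate 1. Stard4 (ENSMUSG00000024378), a soluble carrier that moves cholesterol between membranes, was at 17.99, 19.9 and 21.4 CPM in 2% HS, 19.004, 21.2 and 23.7 in SD, 19.2, 20.2 and 23.02 in MET, 16.8, 18.6 and 23.5 in LEU, and 16.9, 18.01 and 19.8 in MET+LEU. It passed in MET+LEU vs. SD, with a log2 fold change of -0.22 ± 0.07, adjusted p = 0.0275, and this was -0.21 (adjusted p = 0.0545) without MET+LEU replicate 6 and -0.28 (adjusted p = 0.00454) after GC correction. Of these 5 genes, 2 rose in SD and 3 fell in MET+LEU vs. SD, with median log2 fold changes of 0.11 and -0.22. Of all genes, 13.9% rose in SD and 7.80% fell in MET+LEU vs. SD.

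**Figure D3:**
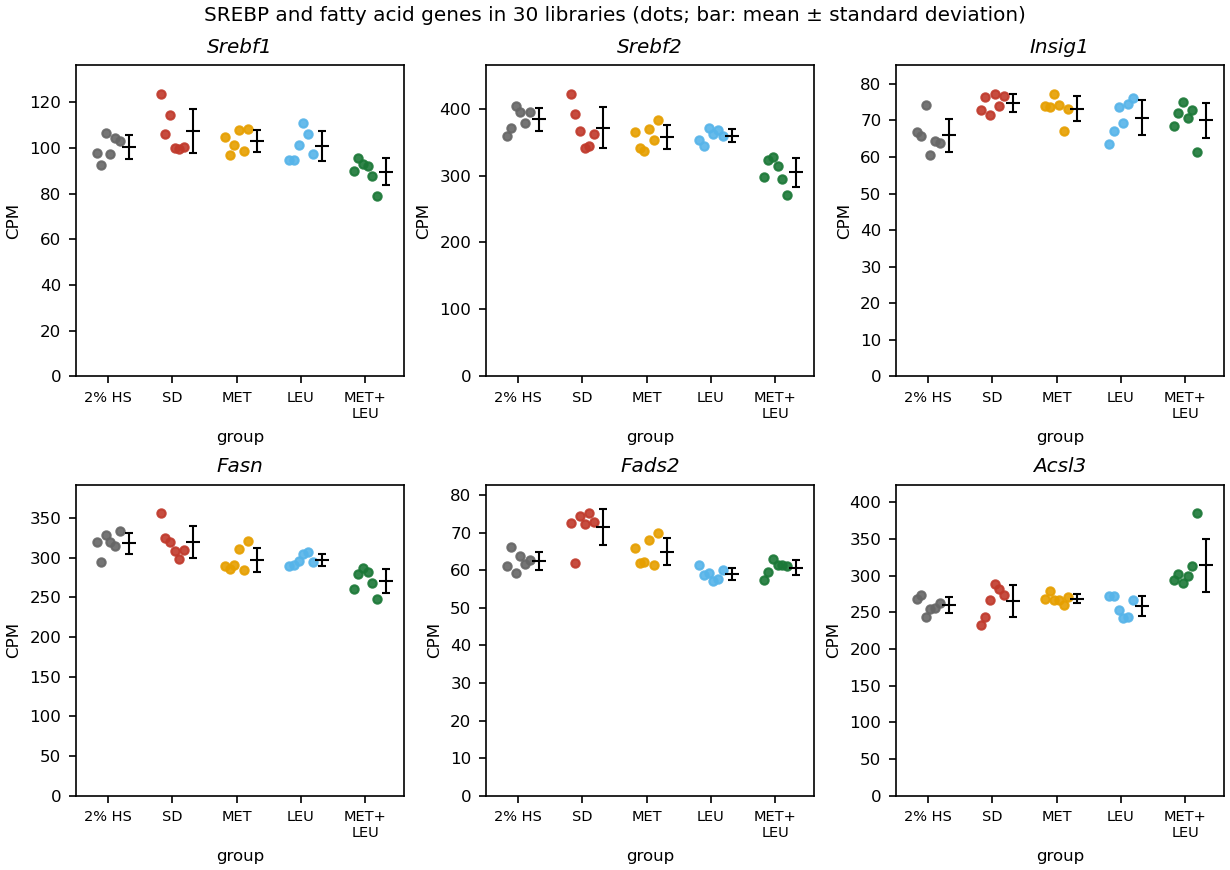
TMM-scaled CPM of 3 genes of the SREBP system and 3 fatty acid genes in 30 libraries (dots) by group, on axes that start at 0, with the mean and standard deviation as a bar. In MET+LEU the Srebf1, Srebf2 and Fasn libraries all lie below those of SD, Acsl3 lies above SD with replicate 6 highest at 386 CPM, and Fads2 is high in SD.

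In acetyl-CoA supply and fatty acid synthesis, SD raised 2 of 5 genes and lowered 1, where 13.9% of all genes rose and 13.9% fell. Acacb (ENSMUSG00000042010, chr5:114146535-114250761, plus strand), the acetyl-CoA carboxylase of the mitochondrial surface whose product restrains fatty acid import, was at 18.1, 20.4 and 22.7 CPM in 2% HS, 14.7, 17.1 and 18.3 in SD, 13.7, 15.1 and 15.7 in MET, 16.4, 17.2 and 18.7 in LEU, and 15.3, 16.4 and 18.4 in MET+LEU. It fell in SD (-0.28 ± 0.07, adjusted p = 0.00109) and stood at -0.01 ± 0.07 in MET+LEU vs. SD, and against 2% HS it was lower in MET+LEU (-0.30 ± 0.07, adjusted p = 0.00039). Acaca, the cytosolic carboxylase, passed in neither comparison (-0.03 and -0.07). Acly (ENSMUSG00000020917, chr11:100476353-100528000, minus strand), which makes cytosolic acetyl-CoA from citrate, was at 98.2, 108 and 111 CPM in 2% HS, 106, 114 and 123 in SD, 103, 112 and 117 in MET, 100.1, 107 and 117 in LEU, and 107, 110.2 and 113 in MET+LEU. Me1 (ENSMUSG00000032418, chr9:86581371-86695953, minus strand), a malic enzyme that yields NADPH, was at 39.6, 42.8 and 44.5 CPM in 2% HS, 42.1, 46.5 and 52.3 in SD, 42.4, 46.1 and 47.6 in MET, 43.7, 45.3 and 49.3 in LEU, and 47.4, 50.6 and 51.9 in MET+LEU. The rises of Acly (0.11 ± 0.04, adjusted p = 0.0339) and Me1 (0.13 ± 0.05, adjusted p = 0.0407) in SD were small, with overlapping groups, and neither passed without SD replicate 1 (adjusted p = 0.0591 and 0.0595). Me1 in MET+LEU lay above every 2% HS library, by 0.24 ± 0.05, adjusted p = 4.82e-05.

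Fasn (ENSMUSG00000025153, chr11:120805846-120824547, minus strand), the fatty acid synthase, was at 294, 319.8 and 333 CPM in 2% HS, 298, 315 and 356 in SD, 285, 289.8 and 321 in MET, 289.6, 295 and 307 in LEU, and 248, 274 and 286 in MET+LEU. Serum withdrawal left it at 0.01 ± 0.04 (adjusted p = 0.922), and in MET+LEU it fell (-0.24 ± 0.04, adjusted p = 1.77e-05), with all 6 libraries below all 6 of SD and of 2% HS. Like Srebf1 it is GC-rich (58.3%), and the GC-corrected value was -0.14 (adjusted p = 0.000751). Thus the synthase and both SREBP genes fell in MET+LEU while the carboxylases and Acly did not pass.

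Among the desaturases, elongases and activating enzymes 1 of 8 rose in SD and none fell, where 13.9% of all genes rose and 13.9% fell. Fads2 (ENSMUSG00000024665, chr19:10062765-10101746, minus strand), the desaturase that opens polyunsaturated fatty acid synthesis, was at 59.3, 62.2 and 66.2 CPM in 2% HS, 61.9, 72.7 and 75.3 in SD, 61.5, 64.1 and 69.96 in MET, 57.2, 59.01 and 61.4 in LEU, and 57.3, 61.4 and 62.95 in MET+LEU. It rose in SD by 0.20 ± 0.04, adjusted p = 0.000386, although SD replicate 2, at 61.9 CPM, lay in the 2% HS range. It then fell in MET+LEU (-0.24 ± 0.04, adjusted p = 9.93e-05) and in LEU (-0.28 ± 0.04, adjusted p = 0.000399), with all LEU libraries below those of SD. Its neighbour Fads1 passed in neither main comparison (-0.04 and -0.06). Acsl3 (ENSMUSG00000032883, chr1:78657825-78707743, plus strand), which activates long-chain fatty acids at the endoplasmic reticulum and lipid droplets, was at 244, 259 and 274 CPM in 2% HS, 233, 270.4 and 289 in SD, 260.4, 268 and 279 in MET, 243, 259.6 and 272 in LEU, and 289.9, 301 and 386 in MET+LEU. It did not pass in SD (0.03 ± 0.05) and rose in MET+LEU by 0.25 ± 0.05, adjusted p = 0.00105, with no overlap. Replicate 6 was the highest at 386 CPM, and without it the value was 0.17 (adjusted p = 0.00164). Utp14b shares 5.60% of the Acsl3 exon bases on the same strand.

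The most abundant members, Scd2 and Scd1, did not pass in edgeR's test in either comparison. Scd2 was at 1535, 1568 and 1641 CPM in 2% HS, 1616, 1646 and 1732 in SD and 1478, 1559.7 and 1670.5 in MET+LEU, with log2 fold changes of 0.07 ± 0.03 (adjusted p = 0.12) and -0.07 ± 0.03 (adjusted p = 0.0974). In MET+LEU vs. SD, Scd2 was called lower with upper-quartile scaling (adjusted p = 0.0398) and in DESeq2's Wald test (adjusted p = 0.0246). Scd1 was at 536, 576 and 604, 518, 557 and 586 and 551, 580.0 and 608 CPM, with -0.04 ± 0.04 and 0.06 ± 0.04. Elovl5, Elovl6 and Lpin1, which elongate fatty acids or make diacylglycerol, lay between -0.06 and 0.05 in SD and between -0.07 and -0.00074 in MET+LEU vs. SD, and none passed.

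The LXR targets split in SD. Abcg1 (ENSMUSG00000024030, chr17:31057675-31117988, plus strand), which exports cholesterol to lipoprotein particles, was at 9.90, 10.8 and 12.98 CPM in 2% HS, 18.5, 19.5 and 22.9 in SD, 17.9, 19.8 and 21.5 in MET, 19.6, 20.6 and 23.97 in LEU, and 17.9, 21.96 and 24.4 in MET+LEU. It rose 1.82-fold in SD (log2 fold change 0.86 ± 0.08, adjusted p = 8.06e-13), the largest change among the 41 genes, and no SD library overlapped those of 2% HS. Neither MET, LEU nor MET+LEU differed from SD past the threshold (MET+LEU vs. SD 0.10 ± 0.07, adjusted p = 0.368). Abca1 (ENSMUSG00000015243, chr4:53030787-53159895, minus strand), the exporter that loads apolipoprotein, went the other way and was at 22.1, 25.1 and 26.3 CPM in 2% HS, 18.5, 21.5 and 23.4 in SD, 20.3, 22.7 and 24.8 in MET, 22.2, 23.97 and 26.4 in LEU, and 21.5, 26.3 and 27.8 in MET+LEU. All SD libraries lay below the 2% HS median (-0.22 ± 0.06, adjusted p = 0.0071), and all MET+LEU libraries lay above the SD median (0.27 ± 0.06, adjusted p = 0.00176), and its MET+LEU vs. 2% HS value did not pass (0.05 ± 0.06, adjusted p = 0.528). Mylip (ENSMUSG00000038175, chr13:45389742-45412022, plus strand), the ubiquitin ligase that removes lipoprotein receptors, was at 58.998, 65.8 and 66.9 CPM in 2% HS, 50.8, 53.3 and 56.4 in SD, 52.3, 56.5 and 58.8 in MET, 52.2, 56.9 and 63.4 in LEU, and 55.2, 58.4 and 63.8 in MET+LEU. It fell in SD with no overlap (-0.27 ± 0.05, adjusted p = 7.41e-06), and MET+LEU stood at 0.12 ± 0.05 above SD (adjusted p = 0.0575) and at -0.15 ± 0.05, adjusted p = 0.00801 against 2% HS.

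**Figure D4:**
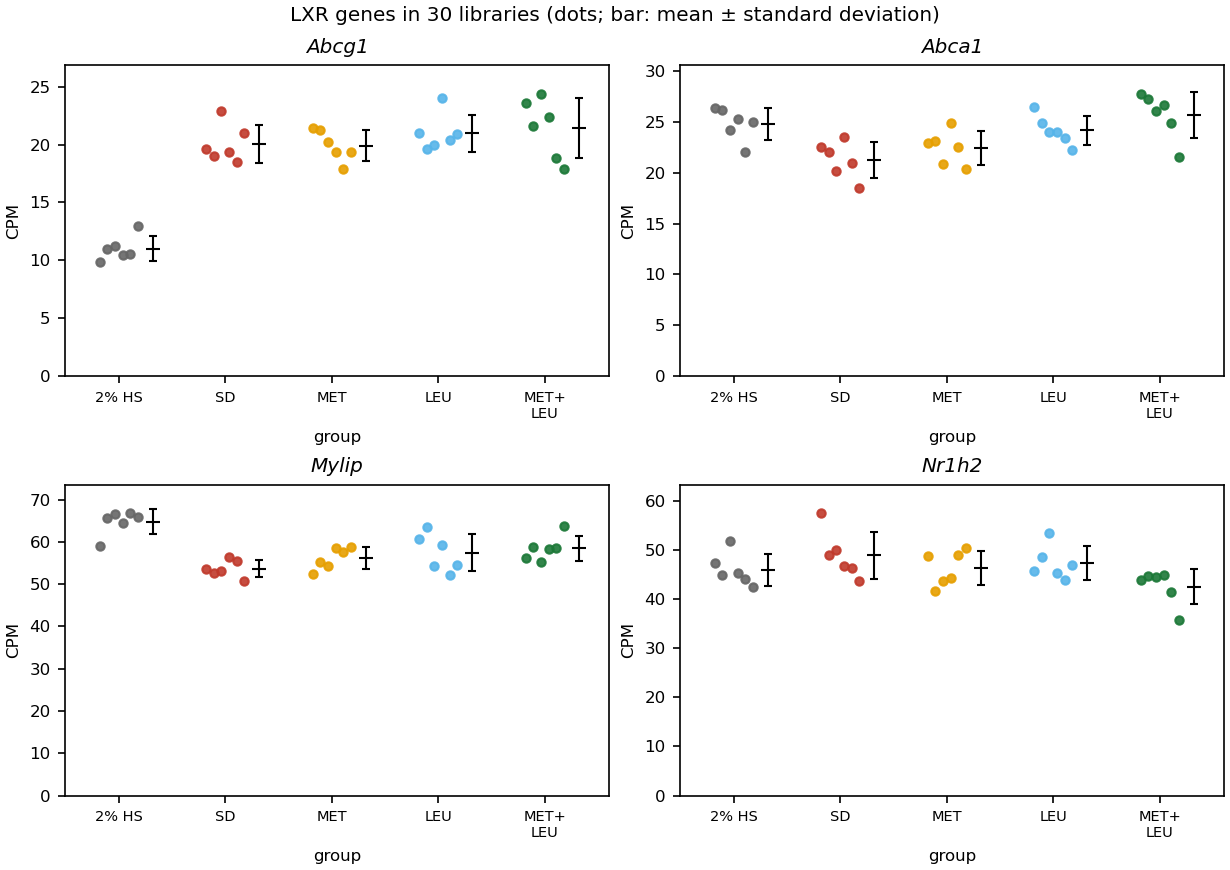
TMM-scaled CPM of 3 LXR target genes and the receptor gene Nr1h2 in 30 libraries (dots) by group, on axes that start at 0, with the mean and standard deviation as a bar. Every serum-free library of Abcg1 lies above every library of 2% HS, while Mylip and Abca1 are lower in SD than in 2% HS.

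Of the receptors, Nr1h2 passed in MET+LEU vs. SD. Nr1h2 (ENSMUSG00000060601, chr7:44549616-44553951, minus strand) was at 42.4, 45.1 and 51.7 CPM in 2% HS, 43.6, 47.7 and 57.5 in SD, 41.6, 46.5 and 50.3 in MET, 43.9, 46.2 and 53.4 in LEU, and 35.8, 44.1 and 44.8 in MET+LEU. It did not pass in SD (0.09 ± 0.06) and fell in MET+LEU vs. SD (-0.20 ± 0.06, adjusted p = 0.0154) with overlapping groups. It is the member with the highest GC content (60.9%). The fall was -0.07 (adjusted p = 0.358) after GC correction and -0.15 (adjusted p = 0.0691) without SD replicate 1, which had the highest SD value. Nr1h3 was at 1.80, 2.57 and 3.94 CPM in 2% HS and 1.43, 2.14 and 2.59 in SD, with a log2 fold change of -0.31 ± 0.17 (adjusted p = 0.187), the widest error of the 41 genes.

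Few of these genes passed with metformin or leucine alone. In MET vs. SD none of the 41 passed in edgeR's test, where 0.157% of all genes passed at the adjusted threshold. Of the 41, 7 had an unadjusted p under 0.05. The share of all genes at that cut was not counted, so this count cannot show whether the members differed from other genes. DESeq2's Wald test called 1, Dhcr7. Dhcr7 was at 52.1, 58.5 and 62.6 CPM in MET against 61.8, 65.4 and 73.9 in SD, a difference of -0.21 ± 0.05, adjusted p = 0.0773. The adjusted p over the alternatives ran from 0.013 to 0.216, the highest without SD replicate 1. In LEU vs. SD, Fads2 alone passed, as given above, where 0.553% of all genes passed. Srebf2 was at -0.05 ± 0.04 in MET and -0.05 ± 0.04 in LEU, and Srebf1 at -0.06 ± 0.05 and -0.09 ± 0.05, none of which passed. Fasn stood at -0.11 ± 0.04 and -0.11 ± 0.04 (adjusted p = 0.318 and 0.275).

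Whether MET+LEU differed from the sum of both single effects was asked by the interaction of MET and LEU. None of the 41 genes passed in edgeR's test, where 0.0503% of all genes passed at the adjusted threshold. Of the 41, 12 had an unadjusted p under 0.05. Here too the share of all genes at that cut was not counted, so no lean of the members can be read from it. DESeq2's Wald test called 1, Scd1. The log2 interaction of Scd1 was 0.23 ± 0.05, adjusted p = 0.0637, with adjusted p from 0.00168 to 0.18 over the alternatives, and the Scd1 libraries were at 489, 507 and 559.9 CPM in MET and 527, 530.2 and 565 in LEU, below the levels of SD and MET+LEU given above in their medians. The interactions of Srebf2 (-0.18 ± 0.06, adjusted p = 0.312), Cyp51 (0.21 ± 0.06, adjusted p = 0.249) and Acsl3 (0.26 ± 0.07, adjusted p = 0.249) did not pass. So Srebf1, Srebf2 and Fasn passed in MET+LEU and not in MET or LEU, but a departure from additivity was not shown for them.

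Set against 2% HS, MET+LEU myotubes differed in 21 of the 41 genes, 10 higher and 11 lower, where 42.3% of all genes passed, 22.1% higher and 20.3% lower. Higher were Hmgcs1 (0.45 ± 0.04, adjusted p = 1.22e-11), Pmvk, Idi1, Fdps (0.34), Sqle, Cyp51 (0.32), Sc5d (0.13), Me1, Acsl3 (0.27) and Abcg1 (0.96). Lower were Lss (-0.25), Ebp (-0.15), Dhcr7, Srebf1 (-0.16), Srebf2, Acaca (-0.11), Acacb, Fasn (-0.23), Fads1 (-0.10), Lpin1 (-0.11) and Mylip. Of the 7 mevalonate and isoprenoid genes 4 were thus higher, and Acat2 (-0.01), Mvd (-0.004) and Mvk did not pass, while the SREBP genes, Fasn and the carboxylases were lower than in serum-fed myotubes. Of the 21 calls, 14 passed under all 9 alternatives. Without MET+LEU replicate 6 the values of Idi1, Sqle and Sc5d were 0.16 (adjusted p = 0.0657), 0.10 (adjusted p = 0.0536) and 0.09 (adjusted p = 0.12), and after GC correction Sc5d and Fads1 did not pass. Acaca, Fads1 and Lpin1 did not pass without the filter on low counts, nor Acaca, Ebp and Sc5d in the fit of those 2 groups alone. The median over the 41 genes was -0.0072, against -0.011 over all genes.

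GC content moved with part of the MET+LEU result. The 4 genes that rose in MET+LEU vs. SD had exon GC contents between 41.1% and 47.7%, the 9 that fell between 45.3% and 60.9% with a median of 57.1%, and all 41 a median of 50.2%. After removing each library's trend over GC content, an alternative added after the data were seen, 13 members again passed, 9 of them among the 13 given above. Of all 15907 genes tested, 2520 passed with the correction and 2931 without it. Hmgcs1, Mvk, Idi1 and Nr1h2 no longer passed, and Pmvk (0.26, adjusted p = 0.0281), Fdps (0.15, adjusted p = 0.0327), Msmo1 (-0.13, adjusted p = 0.0423) and Acaca (-0.11, adjusted p = 0.04) did. The falls of Srebf1, Srebf2, Fasn, Fads2, Lss, Sqle and Stard4 and the rises of Acsl3 and Abca1 passed with and without the correction. In SD vs. 2% HS all 17 calls passed with the correction, and Ebp and Srebf2 were added to them. Over all genes the calls in that comparison also rose, from 4424 to 4777.

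**Figure D5:**
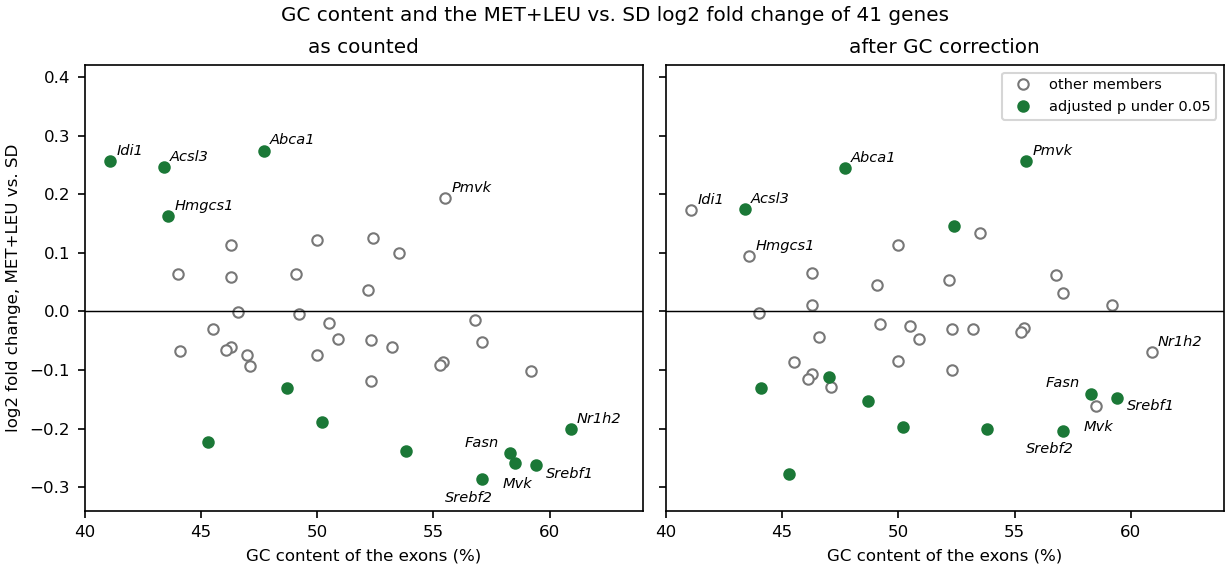
Exon GC content of each of the 41 genes (percent) against its log2 fold change in MET+LEU vs. SD, as counted (left) and after removing each library's GC trend (right), with filled points for an adjusted p under 0.05. On the left the GC-rich Srebf1, Srebf2, Fasn, Mvk and Nr1h2 lie below -0.2, and on the right Mvk and Nr1h2 are open points nearer to 0.

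Within groups, the same genes varied together from library to library. These pairs were chosen after their values were seen, the 30 libraries share depth and base composition, and the correlations of deviations from the group means are a description. For Srebf1 and Srebf2 Pearson's r was 0.795 and Spearman's rho 0.77, and r was 0.682 without the 2 libraries farthest from the median of Srebf1. After GC correction r was 0.411. Srebf2 and Fasn gave an r of 0.855 (rho 0.838, 0.78 without 2 libraries) and 0.525 after GC correction. Hmgcs1 and Cyp51 gave an r of 0.774 (rho 0.761, 0.734 without 2 libraries) that was 0.667 after GC correction. Srebf1 and Fasn gave an r of 0.847 (rho 0.802, 0.77 without 2 libraries) and 0.59 after GC correction. Hmgcs1 and Sqle gave an r of 0.678 (rho 0.484, 0.531 without 2 libraries) and 0.682 after it. Hmgcs1 and Srebf2 ran against each other at -0.594 (rho -0.502, -0.528 without 2 libraries), and at -0.0825 after GC correction. The correlations of Hmgcs1 with Cyp51 and Sqle moved less with the correction than those of the other 4 pairs.

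Other genes around these pathways were read from lists of their functions. Of 9 tested genes of sterol uptake, transport and storage, 2 rose and 2 fell in SD, where 13.9% of all genes rose and 13.9% fell. Vldlr, a receptor of triglyceride-rich lipoproteins, was at 119.8, 136 and 151 CPM in 2% HS and 45.3, 59.7 and 73.2 in SD with no overlap (-1.20 ± 0.11, adjusted p = 3.03e-09). Soat1, which stores cholesterol as esters, was at 174, 180.4 and 184 and 114, 129 and 138 CPM (-0.49 ± 0.04, adjusted p = 1.09e-15), and Lipa, which frees cholesterol from esters in lysosomes, rose (0.23 ± 0.06, adjusted p = 0.00319). Ch25h, Cyp27a1 and Cyp7b1, whose enzymes make or consume oxysterols, reached at most 15 counts in any library and were not tested. In MET+LEU vs. SD 1 of the 9 passed, Abca2 (-0.14 ± 0.04, adjusted p = 0.0112), where 18.4% of all genes passed.

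The counts of the lists below stand beside 13.9% of all genes higher and 13.9% lower in SD. In MET+LEU vs. SD 10.6% of all genes were higher and 7.80% lower. Of 8 further genes of SREBP processing and sterol sensing, 1 rose and 2 fell in SD. The cleaving protease gene Mbtps1 rose (0.12 ± 0.03, adjusted p = 0.00555), while Mbtps2 (-0.19 ± 0.05, adjusted p = 0.00259), the other protease of SREBP cleavage, and Erlin2 (-0.29 ± 0.04, adjusted p = 3.41e-07) fell. Erlin2 fell again in MET+LEU vs. SD (-0.14 ± 0.04, adjusted p = 0.0204). Of 9 genes of isoprenoid branches, Nus1, of dolichol synthesis, rose (0.15 ± 0.05, adjusted p = 0.02) and the farnesyltransferase subunit gene Fntb fell (-0.25 ± 0.06, adjusted p = 0.000776) in SD, and in MET+LEU vs. SD Ggps1, which makes geranylgeranyl diphosphate, rose (0.17 ± 0.06, adjusted p = 0.0324). Of 17 other fatty acid and glycerolipid genes tested, 4 rose and 4 fell in SD, led by Acsl1 (-0.38 ± 0.05, adjusted p = 4.55e-09), Acsl4 (-0.33 ± 0.04, adjusted p = 3.27e-09) and Gpam (0.28 ± 0.03, adjusted p = 1.31e-09), of an early step of glycerolipid synthesis. In MET+LEU vs. SD Acsl4 rose (0.12 ± 0.04, adjusted p = 0.0261) and Gpam fell (-0.10 ± 0.03, adjusted p = 0.0198). Of 4 LXR partner and corepressor genes tested, Rxra rose in SD (0.38 ± 0.04, adjusted p = 4.52e-10), while Rxrb fell (-0.38 ± 0.09, adjusted p = 0.00336) and Ncor1, a corepressor, rose in MET+LEU vs. SD (0.13 ± 0.04, adjusted p = 0.0302). Of the activating enzymes, Acsl1 and Acsl4 fell in SD, where Acsl3 did not pass, and Acsl3 and Acsl4 rose in MET+LEU vs. SD. Acsl1 did not pass there, with medians of 40.2 CPM in SD and 43.1 in MET+LEU. These genes were not tested against each other. For the genes of all these other lists, values after GC correction or without MET+LEU replicate 6 are not given here.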

How the data were processed

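The authors isolated total RNA from C2C12 myotubes, depleted ribosomal RNA, prepared stranded libraries and sequenced them with paired reads. Per the labels, the submitters' processing notes name cutadapt 1.16, STAR 2.7.6a, featureCounts 1.6.3, DESeq2 1.30.1 and the GRCm38 build. The annotation release and the strand setting of the counting are not given in the sources used here, so reads shared by overlapping or near-identical genes were assigned in an unknown way. The values deposited by the authors and used here are raw counts per gene, whole numbers without normalization.

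Symbols, coordinates, exon lengths (the union of all transcripts) and exon GC content came from GENCODE M21. The exon GC content was taken over the bases of all annotated transcripts of a gene, so exons shared between transcripts counted repeatedly. In R 4.3.3, genes were kept by filterByExpr (minimum count 10, minimum total count 15), scaled by TMM and fitted in edgeR 4.0.16 in a model of 5 group means over all 30 libraries with glmQLFit (robust). The quasi-likelihood F test (two-sided) gave a p per contrast, adjusted by the Benjamini-Hochberg method over the 15907 genes, with a threshold of 0.05. CPM are TMM-scaled, and the SE is the absolute log2 fold change divided by the square root of F. For a marker without counts, a floor of 3 counts per library applies, for counting error only. On simulated counts with 200 genes changed 1.5-fold in SD vs. 2% HS and no GC trend, 140 (70%) were recovered with 6 false calls. With an identical GC trend planted in all SD libraries, the same test called 1124 genes, of which 972 were false calls. The test with GC correction then made 12 false calls. In the measured SD libraries the trend was not identical and ran from -0.348 in replicate 1 to 0.0841 in replicate 5. The simulated false calls therefore do not measure those in the real data. Changes smaller than 1.5-fold were not simulated.

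The members and lists were chosen with earlier results of these data known. All 41 members are named. Those among the 3 largest changes of their role group past the threshold in SD vs. 2% HS or MET+LEU vs. SD, and Srebf1, Srebf2, Insig1 and Scap, have the values of all groups given, and other lists have up to 3 genes named per comparison. Alternatives were DESeq2 size factors, upper-quartile scaling, DESeq2 1.42.0 (Wald test), no filter on low counts, fits of the compared groups alone, the replicate number as a block and leaving out MET+LEU replicate 6. A correction for each library's GC trend (a lowess curve of log2 CPM deviations, used as an offset) and leaving out SD replicate 1 were added after seeing the data.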

Additional observations from a re-analysis of the deposited data

Results flagged for a closer look

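In 12 of the 205 sets of 6 libraries (41 genes in 5 groups), the highest or lowest library was separated from the rest by more than Dixon's 95% limit. Chance flags about 1 set in 20, or about 10.2 of the 205. In 2% HS, Sc5d was high at 69.2 CPM in replicate 2 and Mylip low at 59.0 CPM in replicate 1. In SD, Acaca was high at 112 CPM in replicate 6 and Fads2 low at 61.9 CPM in replicate 2. In MET, Fdps was low at 43.1 CPM in replicate 2, Hsd17b7 low at 26.1 CPM in replicate 5 and Stard4 high at 23.02 CPM in replicate 6. In LEU, Scd1 was high at 565 CPM in replicate 1, and replicate 4 was high for Acaca at 114 CPM and for Abcg1 at 23.97 CPM. In MET+LEU, Acsl3 was high at 386 CPM in replicate 6 and Lpin1 high at 59.5 CPM in replicate 5. LEU replicate 4 held 2 of the 12 and no other library held more than 1. MET+LEU replicate 6 is also the library with the raised ribosomal RNA and the GC trend, and their part in its Acsl3 value was not tested.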

How the results depend on the processing

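The counts of members called stayed within 1.5 times in SD vs. 2% HS (17, from 14 to 19 over 9 alternatives), MET+LEU vs. 2% HS (21, from 18 to 21) and LEU vs. SD (1 in each). For MET+LEU vs. SD (13, from 8 to 14), the fit of those 2 groups alone called 8, and Hmgcs1, Mvk, Sqle, Stard4 and Nr1h2 were the 5 lost. That fit used fewer libraries and repeated the filter and the scaling. Of the calls, 13 of 17 in SD vs. 2% HS and 7 of 13 in MET+LEU vs. SD (Lss, Srebf1, Srebf2, Fasn, Fads2, Acsl3 and Abca1) and 14 of 21 in MET+LEU vs. 2% HS passed under all 9 alternatives, and no called value changed sign. In SD vs. 2% HS, Acly and Me1 did not pass with upper-quartile scaling, without the filter or in the fit of the 2 groups alone, and Ebp was added with upper-quartile scaling, the replicate block, the GC correction and either library left out. In MET vs. SD 1 member (Dhcr7) in place of 0 passed in DESeq2's Wald test, without the filter, with the replicate block and with the GC correction. In the interaction 1 in place of 0 passed in DESeq2's Wald test and with the replicate block (Scd1) and without the filter (Acsl3). Without MET+LEU replicate 6 the counts were 18 in SD vs. 2% HS, 11 in MET+LEU vs. SD, 19 in MET+LEU vs. 2% HS, and 1 each in MET vs. SD (Dhcr7), LEU vs. SD and the interaction (Scd1). Without SD replicate 1 they were 14, 12, 21, 0, 1 and 0. Upper-quartile scaling moved the median of the members in MET+LEU vs. 2% HS from -0.0072 to -0.033. The causes of these moves were not tested. Apart from the counts given with the GC correction, the calls over all genes under each alternative are not given here. A general change in calls therefore cannot be told apart from a change among these members.

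For same-numbered libraries of different groups the mean correlation of their deviations was 0.0157 (lowest -0.0913, 60 pairs), against -0.00314 for different numbers. A mean of this kind cannot show whether same-numbered libraries shared an origin. With the replicate block 18 members passed in SD vs. 2% HS, 13 in MET+LEU vs. SD, 20 in MET+LEU vs. 2% HS and 1 in each of the other contrasts.

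Log2 fold changes that changed sign were near 0 and had not passed. In SD vs. 2% HS these were Acat2 (-0.0034 with upper-quartile scaling, -0.013 without SD replicate 1), Idi1 (0.00061 with GC correction), Fdft1 (-0.0031 with GC correction, -0.00039 without SD replicate 1), Hsd17b7 (0.0046 with GC correction, 0.042 without SD replicate 1) and Fasn (-0.0046 with upper-quartile scaling, -0.031 with GC correction, -0.029 without SD replicate 1). In MET+LEU vs. SD they were Mvd (0.011), Sc5d (-0.0034), Acacb (0.063) and Nr1h3 (0.032) with GC correction, Ebp (0.027) and Acacb (0.0069) without SD replicate 1, and Elovl5 (0.0028) in the fit of the 2 groups alone. Without MET+LEU replicate 6 none of these changed sign (Acat2 0.0038, Fdft1 0.0076 and Hsd17b7 -0.011 in SD vs. 2% HS, Ebp -0.00017 and Acacb -0.0030 in MET+LEU vs. SD). Small changes are limited by depth for the rarest member, Nr1h3, at about 2 CPM.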
